A study of Homo sapiens with 20 samples.

Results

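Of the 20314 genes counted in U2-OS cells, 10 form the entry to the extrinsic apoptosis pathway and were followed through irradiation and through loss of IκBα. They were taken by gene symbol, as a list drawn up with earlier results of these data known. They are the death receptors FAS, TNFRSF10A and TNFRSF10B, the decoy receptors TNFRSF10C and TNFRSF10D, the ligand TNFSF10 (TRAIL), the adaptor FADD, the inhibitor CFLAR (FLIP) and the initiator caspases CASP8 and CASP10. Enough reads for a test were present for 8 of the 10, within a total of 14992 genes tested. The 2 genes left out were TNFRSF10A and TNFRSF10D.

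U2-OS is an established human osteosarcoma line. RNA was sequenced from 4 groups of 5 biological replicates, and the question of the study was which genes respond in the first and in the second phase of NF-κB activity after DNA damage. One group was left untreated. A pair of groups received 20 Gy of irradiation (IR) and was taken at 1.5 h (the first phase) or at 7 days (the second phase). The remaining group was not irradiated and carried an shRNA that targets NFKBIA, which encodes the NF-κB inhibitor IκBα. All were grown in DMEM with fetal calf serum. The methods describe lentiviral shRNA vectors, puromycin selection of clones and, for the inducible vector, doxycycline. The study describes the knockdown used for sequencing as the doxycycline-inducible one. The labels name no vector, clone or doxycycline, and set the knockdown beside untreated cells only. The methods name doxycycline-treated cells with scrambled shRNAs as controls for the inducible knockdown, but none of the libraries analysed here carries that label, so in these libraries effects of the knockdown cannot be told apart from those of vector, selection and doxycycline. The untreated libraries carry no time in culture, and no separate untreated group is listed for 7 days.

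Death receptors are membrane proteins of the TNF receptor superfamily with a cytoplasmic death domain. When FAS or a TRAIL receptor binds its ligand, the death domain recruits FADD, which in turn gathers CASP8 and CASP10 into a signalling complex where they activate themselves. CFLAR resembles these caspases but lacks their proteolytic activity, and it limits their activation. The decoy receptors bind TRAIL but lack a functional death domain. FAS and TNFRSF10B are known targets of p53, and CFLAR is known as a survival gene downstream of NF-κB.

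Each library held between 22535659 and 40390961 reads on genes. NFKBIA had 326 to 443 reads in the knockdown libraries and 850 to 1097 in the untreated ones, which is 12.2 ± 0.667 against 31.3 ± 7.24 CPM (counts scaled to a common library size, mean ± SD, n = 5). Of 8 osteoblast lineage markers, RUNX2, COL1A1, ALPL and SPP1 were expressed in all groups, BGLAP and COL1A2 had group means of at most 1.15 and 0.411 CPM, and SP7 and IBSP had at most 3 reads in any library. Several moved with the groups. COL1A1 had 1970 ± 247 CPM in untreated cells and 617 ± 35.9 with the knockdown, ALPL 26.9 ± 12.4 and 6.84 ± 0.628, and SPP1 rose from 12 ± 3.07 to 74.3 ± 5.28 CPM at 7 days. Among markers of other cell types, the highest group means were 1.34 CPM for PTPRC (leukocytes), 3.4 CPM for EPCAM and 2.27 CPM for CDH1 (epithelium), and PTPRC, CDH1 and the epithelial marker KRT5 were called lower with the knockdown. The leukocyte marker CD3E had 12 reads (0.571 CPM) in a single untreated library and at most 1 read in any other library. At 7 days EPCAM (fitted fold 0.552), CDH1 (0.606) and KRT5 (0.432) were called lower. The part of these shifts in the results was not tested. Untreated replicates 5 and 4 stood apart from the other untreated libraries. Their median absolute log2 deviation over genes was 0.319 and 0.22, against 0.0487 to 0.128 in the other 18 libraries. Sequencing lane followed the groups closely. Untreated replicates 1 to 4 shared a lane that held no other group, and untreated replicate 5 was on the lane of the first 3 replicates at 1.5 h post-IR. A fit with lane as a term therefore compares the groups with the untreated cells through untreated replicate 5 alone.

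The promoter windows of FAS and TNFSF10 are shown because these are the receptor and the ligand with the largest log2 fold changes described here. They are RefSeq sequences on build GRCh38.p14, 300 bases around a transcription start, written in the direction of transcription. RefSeq windows were found for 5 of the 10 genes (FAS, TNFSF10, FADD, CFLAR and CASP8), 12 windows in all. The FAS window is 1 of 3 and was picked after the motif matches had been seen. It lies at chr10:88991181-88991480 on the plus strand, and the TNFSF10 window at chr3:172523381-172523680 on the minus strand. Capitals mark letters that match a searched motif on either strand.
FAS: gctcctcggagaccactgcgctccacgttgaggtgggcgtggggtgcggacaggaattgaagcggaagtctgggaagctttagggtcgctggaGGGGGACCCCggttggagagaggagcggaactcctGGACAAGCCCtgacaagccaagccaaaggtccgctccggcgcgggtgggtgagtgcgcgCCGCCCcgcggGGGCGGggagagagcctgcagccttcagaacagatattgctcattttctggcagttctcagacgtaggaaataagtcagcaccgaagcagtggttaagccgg
TNFSF10: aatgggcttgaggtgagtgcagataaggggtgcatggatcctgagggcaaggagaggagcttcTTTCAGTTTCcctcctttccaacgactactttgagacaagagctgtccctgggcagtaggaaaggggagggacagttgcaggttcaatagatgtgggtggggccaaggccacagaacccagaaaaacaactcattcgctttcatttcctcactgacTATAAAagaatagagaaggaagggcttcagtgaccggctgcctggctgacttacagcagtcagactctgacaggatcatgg
In the FAS window the capitals are, from left to right, a match to the NF-κB motif starting at position -157, a p53 half-site starting at position -122 and a pair of GGGCGG boxes (the Sp1 motif, the first read on the opposite strand). Positions count from the transcription start. In the TNFSF10 window they are an interferon-stimulated response element (ISRE), on the opposite strand, starting at position -187, and a TATA box, TATAAA, starting at position -31. The AP-1 motif TGANTCA and the STAT motif TTCNNNGAA were also searched and have no match in these windows. Of 35116 promoter windows of the same length, 11.3% held a match to the NF-κB motif, 6.63% a p53 half-site, 45.0% GGGCGG, 3.57% the ISRE, 11.5% TATAAA, 7.71% TGANTCA and 7.66% TTCNNNGAA. No binding was measured in these libraries, and a match describes the letters only.

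Calls required a log2 fold change of more than 0.5 in either direction and an adjusted p under 0.05. The p values came from the quasi-likelihood test of edgeR, adjusted by Benjamini-Hochberg over all genes tested. At 1.5 h post-IR, 2 of the 8 tested genes were called, FAS and TNFRSF10B, both higher than in untreated cells. Among all genes tested 3.66% were called, 2.08% higher and 1.57% lower. At 7 days post-IR, 4 of the 8 were called and again all were higher, namely FAS, TNFRSF10B, TNFSF10 and CASP10. The background at this time was 31.1%, with 16.7% higher and 14.4% lower. With NFKBIA knockdown only CASP10 was called, higher, against a background of 12.7%, with 5.18% higher and 7.53% lower. None of the 8 was called lower in any comparison. TNFSF10 passed the filter on low counts only through its reads at 7 days, so its values there are a description. Without it, 3 of 7 genes were called at 7 days. The median log2 fold change of these 7 genes was 0.05 at 1.5 h, 0.29 at 7 days and 0.28 with the knockdown, while the medians over all genes tested were -0.026, 0.012 and -0.008. The 3 comparisons share the same untreated libraries.

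Counting the libraries without a model gave a wider set. Every treated library lay above every untreated one for 2 of the 8 genes at 1.5 h, 6 at 7 days (5 without TNFSF10) and 4 with the knockdown. Among all genes tested, the libraries did not overlap in either direction for 12.3%, 44.8% and 24.1%. The genes that did not overlap at 7 days without being called were TNFRSF10C and CFLAR. Those with the knockdown were FAS, TNFRSF10B and TNFRSF10C.

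**Figure D1:**
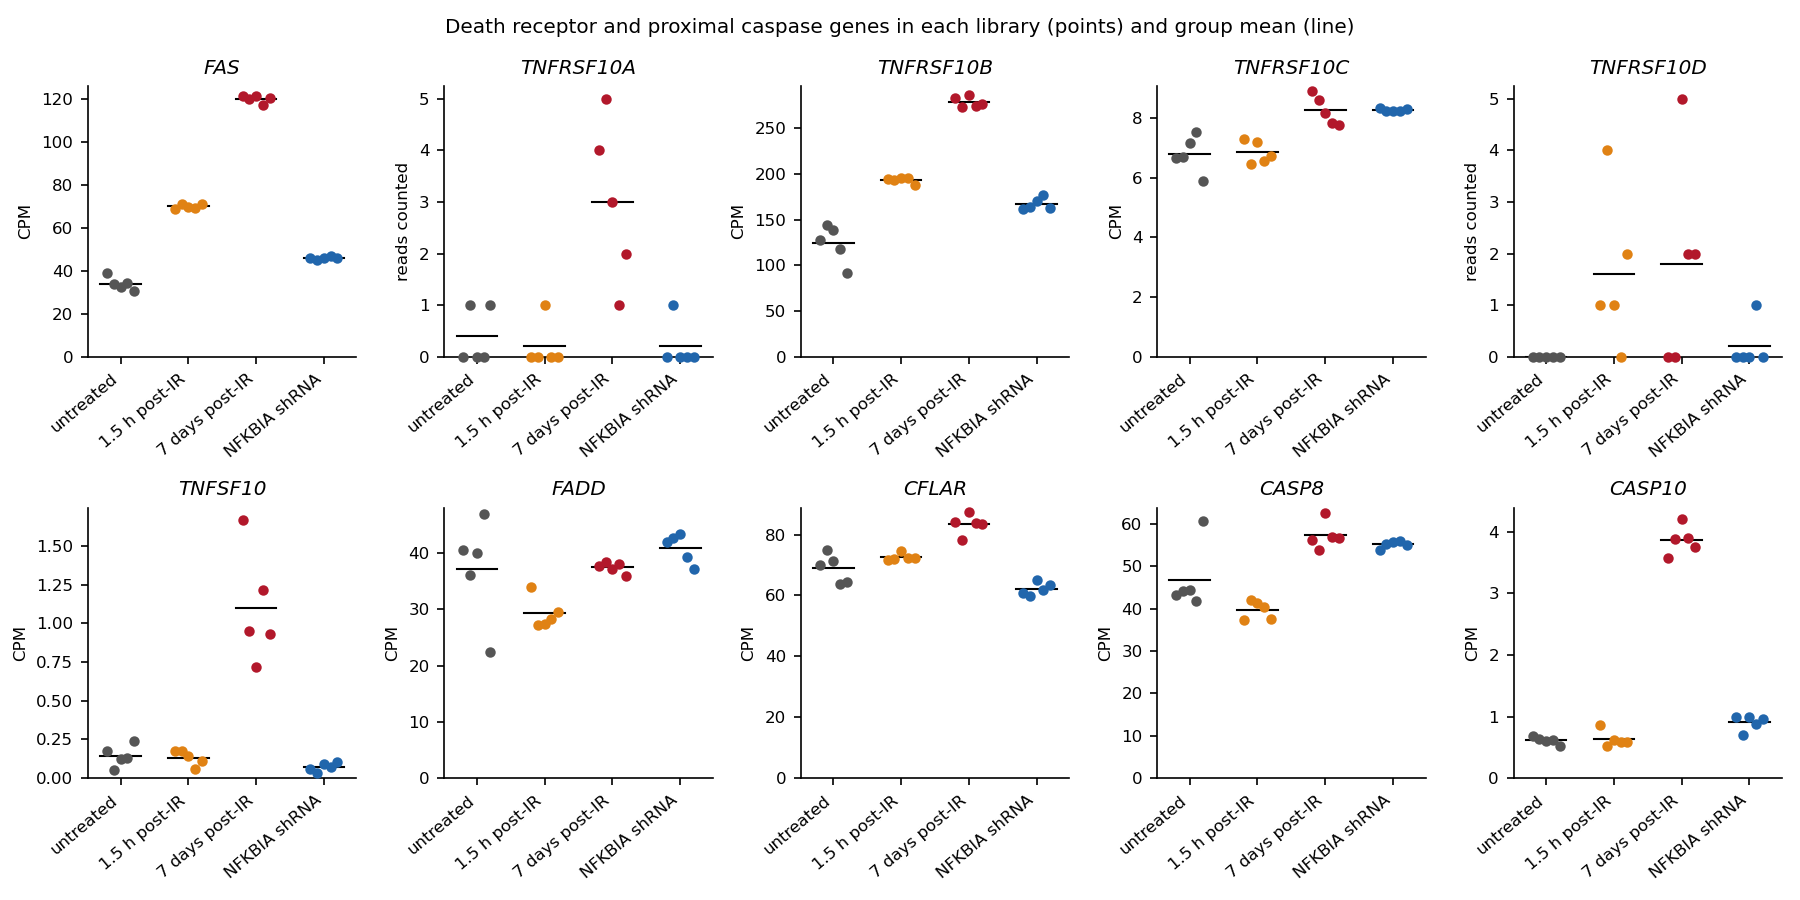
CPM (linear axis from 0, one panel for each gene) in every library of the 4 groups, with points for libraries and lines for group means. The panels of TNFRSF10A and TNFRSF10D show reads counted in place of CPM. FAS lies between 30.6 and 38.8 CPM in untreated cells and between 117 and 121 CPM at 7 days, with no overlap between any of the groups, while untreated replicate 5 is the lowest library for FADD and TNFRSF10B and the highest untreated library for CASP8.

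FAS is the receptor of FAS ligand. Its untreated libraries had 38.8, 33.8, 32.6, 34.5 and 30.6 CPM. At 1.5 h post-IR they had 68.7 to 71.2 CPM, at 7 days 117 to 121 CPM and with NFKBIA knockdown 44.8 to 46.7 CPM. All 4 groups were separated from each other, and the spread within the treated groups was small, with SDs of 0.688 to 1.75 CPM. FAS rose at 1.5 h with a log2 fold change of 1.04 ± 0.048 (SE, edgeR adjusted p = 1.71e-12), a fitted fold of 2.05. The rise at 7 days was 1.82 ± 0.048 (edgeR adjusted p = 2.97e-17), a fitted fold of 3.52. With the knockdown the log2 fold change was 0.43 ± 0.048 (edgeR adjusted p = 4.55e-07), which lies below the fold threshold. With lane as a term this value was 0.59 and passed it. Within the lane that untreated replicate 5 shared with libraries at 1.5 h, the difference of FAS at that time was 1.18, and no lane held untreated libraries together with those at 7 days or of the knockdown. In bulk RNA, more cells of one kind and more RNA per cell cannot be told apart.

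The annotation (GENCODE 29) places ACTA2, a smooth muscle actin gene, on the strand opposite to FAS, and exons of both overlap. ACTA2 had median counts of 458 in untreated cells, 412 at 1.5 h, 1166 at 7 days and 325 with the knockdown. Its median was thus also highest at 7 days, while at 1.5 h and with the knockdown it lay below the untreated one. Whether the counting used strand is not given in the sources used here, so the part of ACTA2 reads in the FAS counts was not tested.

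TNFRSF10B encodes the TRAIL receptor DR5, which carries a full death domain. Its untreated libraries had 127.8, 144.1, 138.8, 118 and 91.66 CPM, with replicate 5 the lowest. The libraries at 1.5 h had 188 to 196 CPM, those at 7 days 273 to 286 CPM and those of the knockdown 162 to 177 CPM. No library of any treated group fell into the untreated range. TNFRSF10B rose by 0.64 ± 0.079 on the log2 scale at 1.5 h (edgeR adjusted p = 5.61e-06) and by 1.17 ± 0.08 at 7 days (edgeR adjusted p = 5.56e-11). The knockdown value of 0.43 ± 0.079 (edgeR adjusted p = 0.000205) stayed below the fold threshold, and was 0.83 and called with lane as a term. Without untreated replicates 4 and 5 the knockdown value was 0.27. In the same fit the value at 1.5 h was 0.49 and no longer passed the fold threshold, although its edgeR adjusted p was then 1.73e-09. With lane as a term the value at 1.5 h was 1.09, and within the shared lane 1.08. Exons of TNFRSF10B overlap those of RHOBTB2 on the opposite strand, whose median count was lowest at 7 days, at 774 against 1253 in untreated cells.

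TNFRSF10C, a decoy receptor held in the membrane by a lipid anchor, was far lower and moved little. Its group means were 6.79 ± 0.618 CPM in untreated cells, 6.85 ± 0.377 at 1.5 h, 8.26 ± 0.5 at 7 days and 8.27 ± 0.0425 with the knockdown (SD, n = 5). The log2 fold changes were 0.01 ± 0.066 at 1.5 h, 0.28 ± 0.066 at 7 days and 0.28 ± 0.066 with the knockdown (edgeR adjusted p = 0.991, 0.000971 and 0.00198), none past the fold threshold. With lane as a term the last of these became 0.71 and the value at 7 days 0.64, and both were called. The gene shares exons with a neighbouring transcript on its own strand, AC107959.5, which was not analysed here.

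The remaining TRAIL receptors were close to silent. TNFRSF10A, which encodes DR4, had 0, 1, 0, 0 and 1 reads in the untreated libraries and 0, 0, 1, 0 and 0 at 1.5 h. At 7 days it had 4, 5, 3, 1 and 2 reads, 15 in all, and with the knockdown a single read in one library. The decoy TNFRSF10D had 0 reads in all untreated libraries, 1, 4, 1, 0 and 2 at 1.5 h, 0, 0, 5, 2 and 2 at 7 days, and 1 read in all the knockdown libraries together. Neither gene passed the filter on low counts, and neither was tested. Within this cluster of TRAIL receptor genes, the reads thus came almost entirely from TNFRSF10B and, at a far lower level, TNFRSF10C.

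TNFSF10, the TRAIL ligand itself, was nearly absent except at 7 days. Its counts were 6, 2, 5, 4 and 5 in untreated cells and 7, 6, 5, 2 and 4 at 1.5 h. At 7 days they were 57, 29, 25, 40 and 26, and with the knockdown 2, 1, 3, 2 and 3. Every library at 7 days lay above every other library, and the knockdown libraries lay at the low end. The log2 fold change at 7 days was 2.97 ± 0.3, with 1.1 ± 0.364 CPM against 0.146 ± 0.0677 CPM in untreated cells. At 1.5 h the log2 fold change was -0.03 ± 0.44 (edgeR adjusted p = 0.972), and with the knockdown it was -0.92 ± 0.52 (edgeR adjusted p = 0.166). The standard errors of these last values are wide, so they do not exclude a moderate change. FASLG, the ligand of FAS, had too few reads to be tested.

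FADD, the adaptor that joins receptors to caspases, gave no call. Its untreated libraries had 40.5, 36.1, 40, 46.9 and 22.5 CPM, and replicate 5 was again the lowest. The group means were 37.2 ± 9.08 CPM in untreated cells, 29.3 ± 2.76 at 1.5 h, 37.5 ± 1.01 at 7 days and 40.9 ± 2.57 with the knockdown (SD, n = 5). The log2 fold change at 1.5 h was -0.35 ± 0.12 (edgeR adjusted p = 0.0424), and the libraries overlapped. This direction rested on how untreated replicate 5 was used, since within the lane it shares with libraries at 1.5 h the value was 0.38 and with lane as a term 0.39. At 7 days and with the knockdown, the log2 fold changes were 0.01 ± 0.12 and 0.13 ± 0.12 (edgeR adjusted p = 0.961 and 0.395), and with lane as a term they were 0.79 and 0.97 and were called.

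CFLAR differed little between groups. The means were 68.9 ± 4.64 CPM in untreated cells, 72.5 ± 1.27 at 1.5 h, 83.5 ± 3.33 at 7 days and 62.2 ± 2.16 with the knockdown (SD, n = 5). The libraries at 7 days all lay above the untreated ones, and the knockdown libraries overlapped them from below. The log2 fold change was 0.28 ± 0.046 at 7 days (edgeR adjusted p = 2.63e-05) and -0.15 ± 0.046 with the knockdown (edgeR adjusted p = 0.0146), and at 1.5 h it was 0.07 ± 0.046 (edgeR adjusted p = 0.289). None passed the fold threshold, and none did under any alternative with that threshold.

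CASP8, the initiator caspase expressed in all groups, had 43.4, 44.2, 44.4, 41.8 and 60.8 CPM in the untreated libraries. Replicate 5, lowest for TNFRSF10B and FADD, was the highest here. The libraries had 37.4 to 42.1 CPM at 1.5 h, 54 to 62.7 CPM at 7 days and 53.9 to 56.1 CPM with the knockdown. Apart from untreated replicate 5, the libraries at 7 days and of the knockdown lay above all untreated ones. The log2 fold changes were -0.23 ± 0.077 at 1.5 h, 0.29 ± 0.077 at 7 days and 0.24 ± 0.077 with the knockdown (edgeR adjusted p = 0.0351, 0.00224 and 0.0169), none past the fold threshold. Leaving out 1 library, the value at 1.5 h ran from -0.28 to -0.13, and without untreated replicates 4 and 5 it was -0.15. With lane as a term the value at 1.5 h was -0.59 and was called lower, and the other values turned to -0.10 at 7 days and -0.22 with the knockdown.

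CASP10, the second initiator caspase, was low but showed a large response at 7 days. Its counts were 23, 23, 24, 19 and 11 in untreated cells, 34, 18, 22, 20 and 21 at 1.5 h, 122, 118, 146, 128 and 105 at 7 days, and 34, 23, 33, 24 and 27 with the knockdown. The libraries at 7 days stood clear of all the others. CASP10 rose at 7 days with a log2 fold change of 2.63 ± 0.12 (edgeR adjusted p = 9.15e-14), from 0.614 ± 0.0588 to 3.86 ± 0.234 CPM, with a fitted fold of 6.21. At 1.5 h the log2 fold change was 0.05 ± 0.15 (edgeR adjusted p = 0.893). The rise with the knockdown was 0.54 ± 0.15 (edgeR adjusted p = 0.0125), with 0.904 ± 0.125 CPM and no overlap with the untreated libraries. That call was just above the threshold. Without untreated replicate 5 the value was 0.49 and was not called, and without untreated replicates 4 and 5 it was 0.48. Including lane as a term gave 1.03 (edgeR adjusted p = 0.149), which was not called either.

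**Figure D2:**
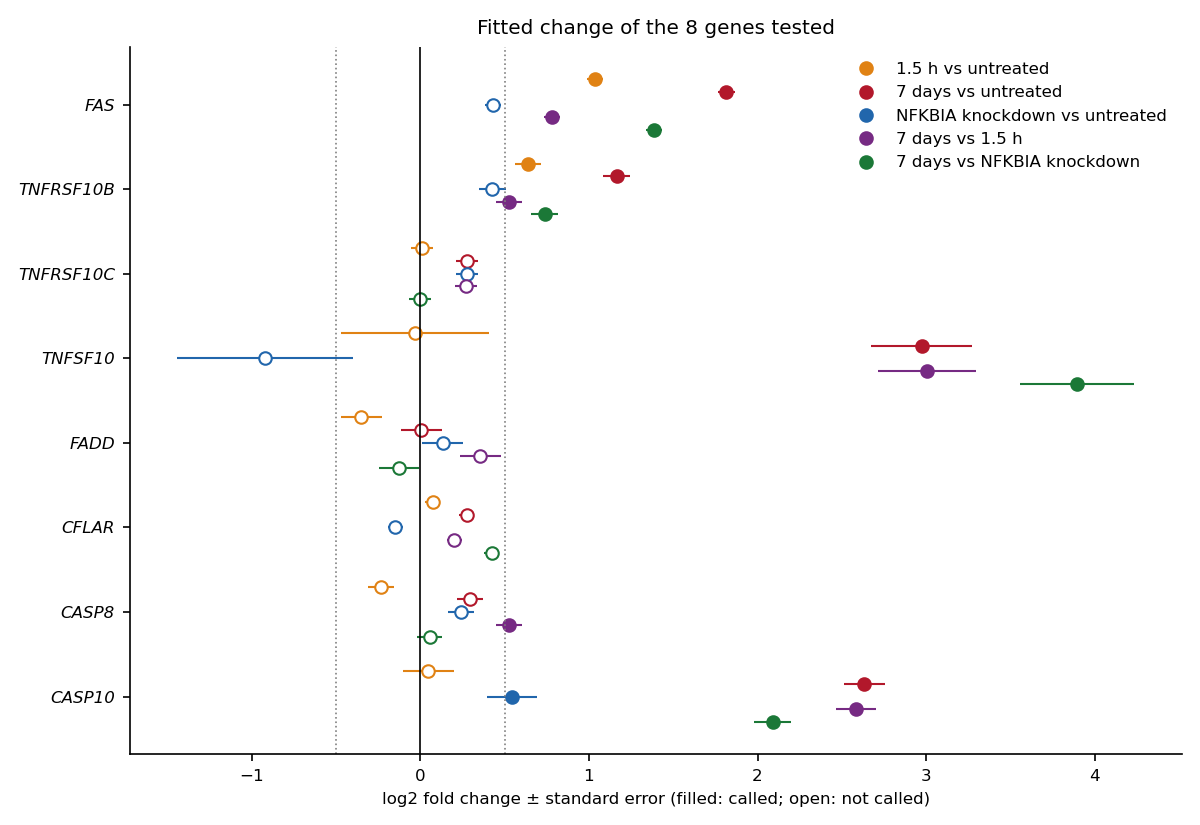
Fitted log2 fold changes (with standard errors as bars) of the 8 tested genes. Comparisons are 1.5 h post-IR, 7 days post-IR and NFKBIA shRNA against untreated cells, and 7 days against 1.5 h and against the knockdown. Against untreated cells FAS is at 1.04, 1.82 and 0.43. The largest values against untreated cells are those of TNFSF10 at 2.97 and CASP10 at 2.63, at 7 days. TNFSF10 at 7 days is at 3.01 against 1.5 h and at 3.89 against the knockdown.

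On chromosome 2, CFLAR, CASP10 and CASP8 are consecutive protein-coding genes on the same strand in GENCODE 29. The log2 fold changes of these neighbours at 7 days were 0.28, 2.63 and 0.29, so that the middle gene changed far more than the genes on either side. CASP10 and CASP8 share no exon with another annotated gene. On chromosome 8, TNFRSF10B, TNFRSF10C, TNFRSF10D and TNFRSF10A lie in this order, with AC107959.5 between the first and the second. Of this cluster only TNFRSF10B was called after irradiation, with the limit that TNFRSF10A and TNFRSF10D were not tested.

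The contrast of 7 days against 1.5 h compares the phases directly, since the untreated libraries cancel. Any difference in time in culture is also part of this contrast and cannot be told apart from irradiation. In it 5 of the 8 genes (4 of 7 without TNFSF10) were called higher at 7 days and none lower, against a background of 29.3%, with 16.8% higher and 12.6% lower. The libraries did not overlap for any of the 8 genes (or of the 7 without TNFSF10), all higher at 7 days, whereas 61.8% of all genes did not overlap in either direction. The log2 difference was 3.01 ± 0.29 for TNFSF10, as a description. It was 2.59 ± 0.12 for CASP10 and 0.78 ± 0.047 for FAS (edgeR adjusted p = 9.75e-14 and 8.28e-12). It was 0.53 ± 0.079 for TNFRSF10B and 0.53 ± 0.077 for CASP8 (edgeR adjusted p = 6.45e-06 and 4.5e-06), both just past the fold threshold. The call of TNFRSF10B was lost without replicate 1 or replicate 3 at 7 days (0.50 and 0.49), and that of CASP8 without replicate 1 at 1.5 h (0.48) or replicate 3 at 7 days (0.47). Lane 4 held replicates 4 and 5 at 1.5 h and replicates 1 and 2 at 7 days, and within it the log2 differences were 3.87 for TNFSF10, 2.63 for CASP10, 0.77 for FAS, 0.52 for TNFRSF10B and 0.49 for CASP8. The values not called were 0.27 for TNFRSF10C, 0.36 for FADD and 0.20 for CFLAR.

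Set against the knockdown, in which cells were not irradiated, 4 of the 8 genes (3 of 7 without TNFSF10) were called higher at 7 days and none lower, with a background of 25.7%, of which 15.8% were higher and 9.89% lower. They were TNFSF10 (3.89 ± 0.34), CASP10 (2.09 ± 0.11), FAS (1.39 ± 0.048) and TNFRSF10B (0.74 ± 0.079) on the log2 scale, with edgeR adjusted p values of 1.88e-12, 1.37e-15 and 7.27e-08 for the last 3. Within lane 5, which held replicates 3 to 5 at 7 days but only replicate 1 of the knockdown, with 2 TNFSF10 reads, the values were 3.93, 1.98, 1.38 and 0.79 in the same order. The TNFSF10 value rests on 11 reads in the 5 knockdown libraries together. CFLAR was at 0.42 ± 0.046 (edgeR adjusted p = 1.04e-07), below the fold threshold but with no overlap between libraries. The libraries of 5 of the 8 genes (4 of 7 without TNFSF10) did not overlap, against 60.7% of all genes. For TNFRSF10C, FADD and CASP8 the differences were 0.00 ± 0.065, -0.13 ± 0.12 and 0.05 ± 0.076.

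Levels can be compared between genes only per length, for which reads per kilobase of exon were computed from CPM (RPKM). In untreated cells the order was TNFRSF10B at 24.1 RPKM, FADD at 20.2, FAS at 9.56, CASP8 at 6.89, CFLAR at 3.06, TNFRSF10C at 2.59, CASP10 at 0.0808 and TNFSF10 at 0.0419. The ranges of TNFRSF10B and FADD overlapped, as did those of FAS and CASP8 and those of CFLAR and TNFRSF10C. Within a library, the order turned only in replicate 4 for TNFRSF10B and FADD (22.88 against 25.47 RPKM). Replicate 4 also turned it for CFLAR and TNFRSF10C (2.836 against 2.875 RPKM), and replicate 5 for FAS and CASP8 (8.6 against 8.929 RPKM). At 7 days TNFRSF10B had 54 RPKM and FAS 33.7 RPKM, and FAS had passed FADD, which was at 20.4 RPKM. CASP8 stood at 8.42 RPKM and CASP10 at 0.508 RPKM, so CASP10 remained the minor initiator caspase after its rise. The length used for CFLAR is 22528 bases, the union of its annotated exons, which lowers its value per kilobase. For other genes the length used differs from that of the exons in GENCODE 29. It is 2625 against 1868 bases for TNFRSF10C, 3562 against 4253 for FAS and 6808 against 7243 for CASP8. The order of genes close in level, such as CFLAR and TNFRSF10C, therefore depends on the length used.

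**Figure D3:**
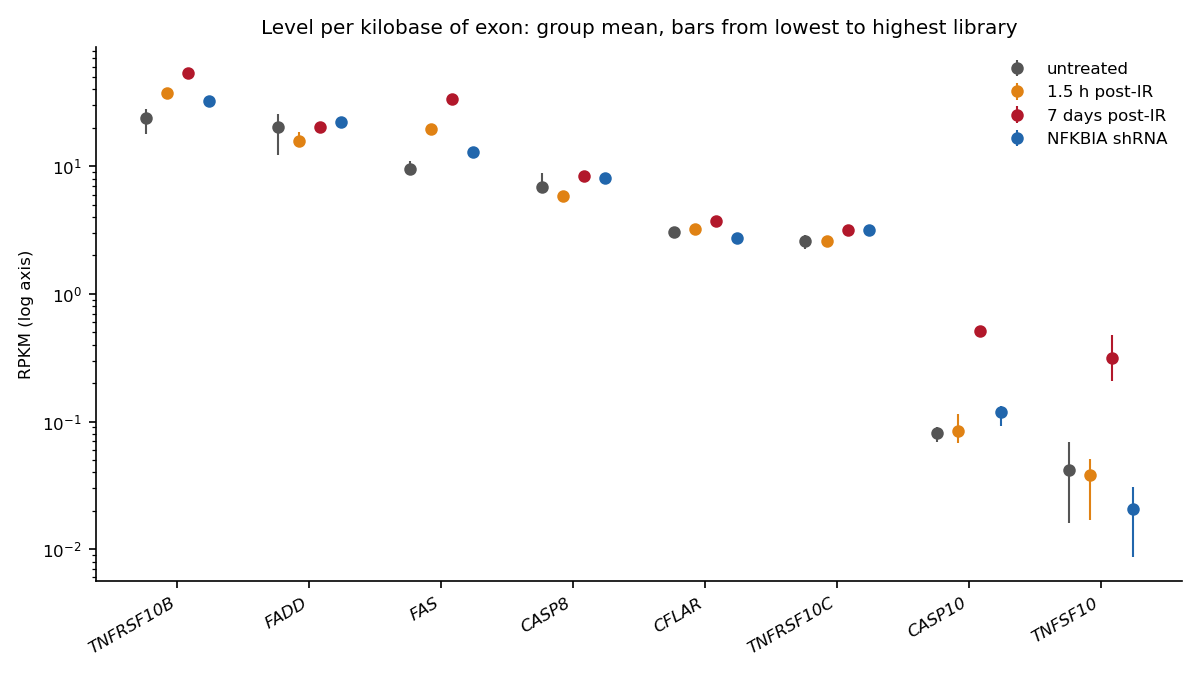
RPKM (log axis) of the 8 tested genes in the 4 groups, with points for group means of 5 libraries and bars from the lowest to the highest library. In untreated cells TNFRSF10B leads at 24.1 RPKM and TNFSF10 is last at 0.0419 RPKM, and FAS moves above FADD at 1.5 h and at 7 days.

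Ratios of counts within a library do not depend on the scaling between libraries and are given as a description. The log2 ratio of FAS to TNFRSF10B was -1.85 ± 0.23 in untreated cells, -1.47 ± 0.042 at 1.5 h, -1.22 ± 0.019 at 7 days and -1.86 ± 0.043 with the knockdown (SD, n = 5). FAS thus gained on TNFRSF10B after irradiation, with no overlap with untreated libraries, and not with the knockdown. The ratio of the decoy TNFRSF10C to TNFRSF10B was -4.18 ± 0.21 in untreated cells and lay lower at 1.5 h (-4.82 ± 0.074) and at 7 days (-5.08 ± 0.082), without overlap. With the knockdown it was -4.33 ± 0.06, inside the untreated range. CASP10 to CASP8 was -6.21 ± 0.34 in untreated cells, -5.95 ± 0.33 at 1.5 h and -5.92 ± 0.22 with the knockdown, which overlapped, and -3.89 ± 0.065 at 7 days, which did not.

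The inhibitor to caspase ratio, CFLAR to CASP8, was 0.57 ± 0.27 in untreated cells, 0.87 ± 0.071 at 1.5 h, 0.54 ± 0.038 at 7 days and 0.17 ± 0.047 with the knockdown on the log2 scale. It was higher at 1.5 h than in any untreated library, but by little, with a lowest value of 0.77 at 1.5 h. The untreated range ran from 0.09 to 0.76, and its low end was replicate 5, so the knockdown libraries at 0.11 to 0.22 overlapped the untreated ones through this library alone. The knockdown libraries lay below all libraries at 7 days and at 1.5 h. Ratios with TNFRSF10A and TNFRSF10D rested on counts near 0 and are not given.

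**Figure D4:**
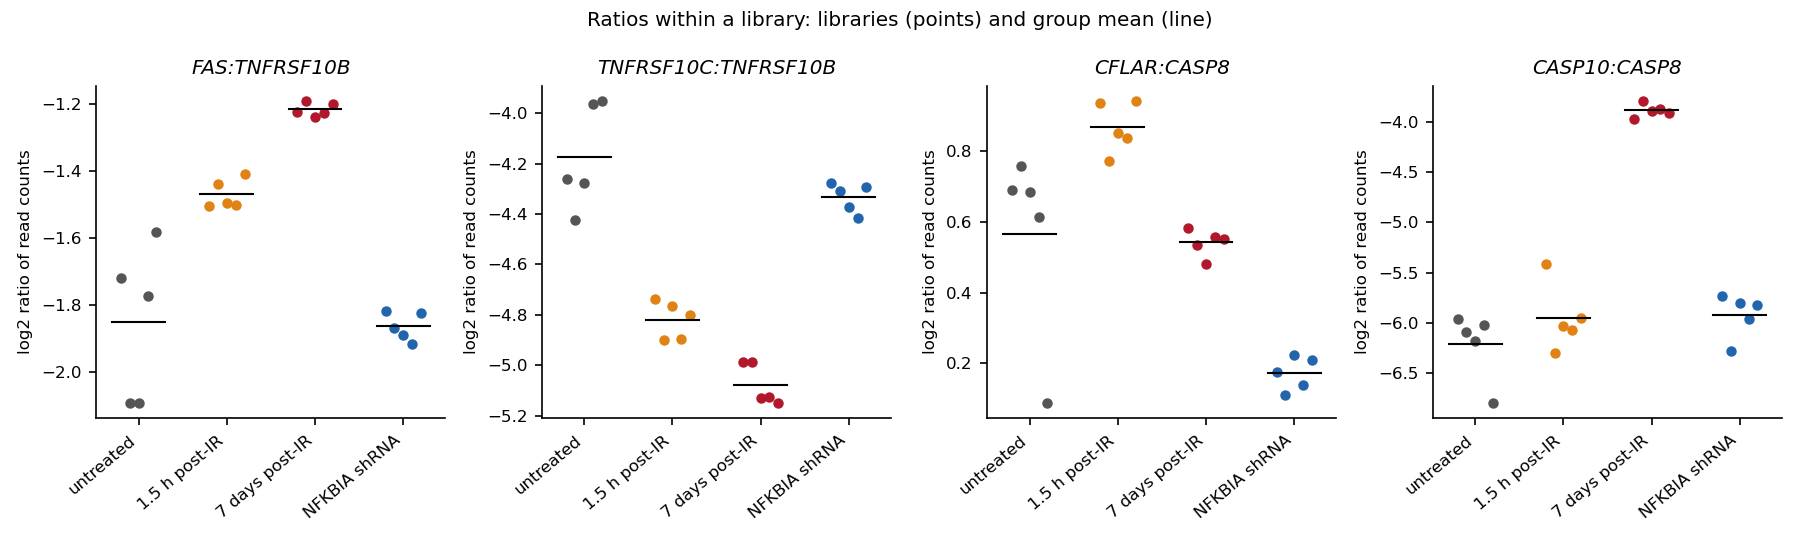
Log2 ratio of read counts within each library for 4 pairs of genes, with points for libraries and lines for group means. The FAS to TNFRSF10B ratio climbs from a mean of -1.85 in untreated cells to -1.22 at 7 days, and CFLAR to CASP8 is lowest with NFKBIA shRNA at 0.17 except for untreated replicate 5.

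Of a list of 38 further genes of the extrinsic pathway (other receptors and decoys, ligands, adaptors, downstream genes and necroptosis genes), 37 were in the table and 33 could be tested. At 1.5 h, 2 were called higher and 1 lower, with a median log2 fold change of -0.04 over the 33 genes, beside the 3.66% of all genes called. TNF, the founding ligand of the family, had 1 to 8 reads in untreated libraries and 18 to 38 reads at 1.5 h, with a fitted log2 fold change of 1.92 ± 0.34. It passed the filter on low counts only through its reads at 1.5 h, so this is a description, and without it 1 of 32 genes was called higher and 1 lower. DAPK1, a death-associated kinase, rose by 0.81 ± 0.19 (edgeR adjusted p = 0.00492). TNFRSF11B, the secreted decoy osteoprotegerin that also binds TRAIL, fell by 0.80 on the log2 scale (SE 0.083, edgeR adjusted p = 5.92e-07), from 91.4 ± 7.33 to 52.6 ± 1 CPM. With lane as a term TNF had 1.06 and was no longer called, and DAPK1 had 1.55.

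At 7 days 11 of the 33 were called higher and 3 lower, with a median of 0.11 and 31.1% of all genes called. All 8 genes named next had an edgeR adjusted p of at most 9.73e-05. The largest rises were those of DAPK1 (1.28 ± 0.19), the necroptosis effector MLKL (1.04 ± 0.087), the receptor EDA2R (0.99 ± 0.16), the p53-induced death domain protein PIDD1 (0.99 ± 0.078) and the deubiquitinase CYLD (0.91 ± 0.074). The genes called lower were TNFRSF6B, a soluble decoy for FAS ligand (-1.41 ± 0.15), the receptor NGFR (-0.87 ± 0.16) and FAIM, an inhibitor of FAS-induced death (-0.68 ± 0.098). EDA2R had 0.21 with lane as a term and was not called, while DAPK1 had 2.2, NGFR -1.7 and FAIM -1.18.

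With NFKBIA knockdown 1 of the 33 was called higher and 1 lower, with a median of -0.05 and 12.7% of all genes called. NGFR rose by 1.41 ± 0.15 on the log2 scale (edgeR adjusted p = 2.42e-07), from 8.66 ± 2.9 to 22.7 ± 2.62 CPM, and thus had opposite signs with the knockdown and at 7 days. With lane as a term its knockdown value was 0.41 and was not called. TNFRSF11B fell by 0.71 on the log2 scale (SE 0.083, edgeR adjusted p = 8.85e-07). At 7 days TNFRSF11B was at 96.2 ± 13.5 CPM, and its libraries overlapped the untreated ones.

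**Figure D5:**
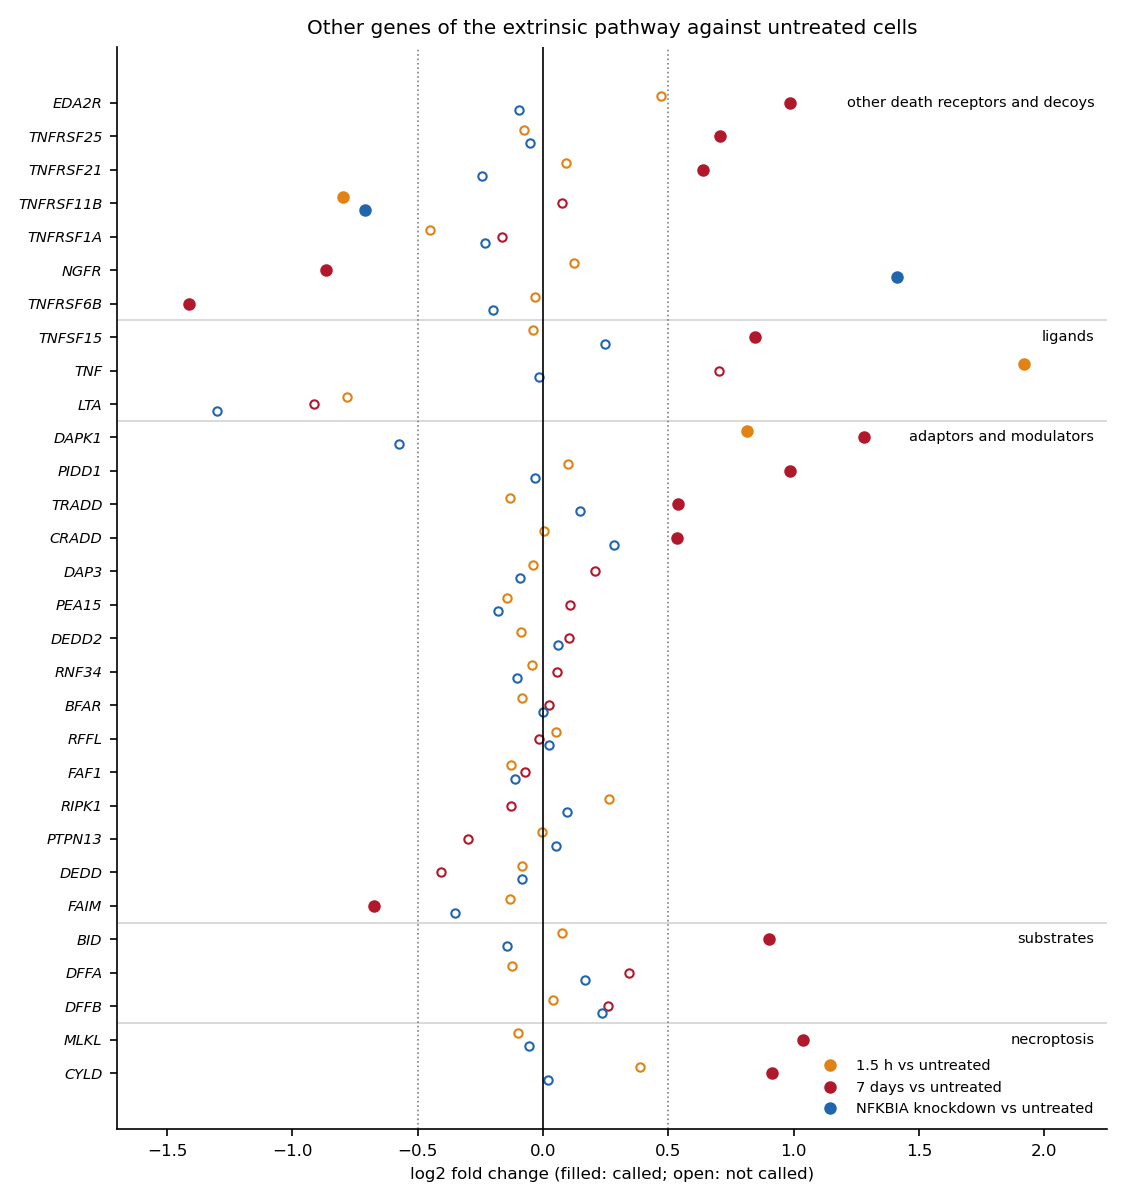
Log2 fold changes of other tested genes of the extrinsic pathway (some genes are not shown) at 1.5 h post-IR, 7 days post-IR and with NFKBIA shRNA against untreated cells, with filled points for genes called and dotted lines at the fold threshold of 0.5 in either direction. TNF at 1.92 is the highest at 1.5 h, NGFR at 1.41 the highest with the knockdown, and TNFRSF6B at -1.41 the lowest at 7 days.

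For each gene called against untreated cells, the genes with the nearest pattern over the 4 group means of log2 CPM were sought among all genes tested. They were FAM84A and GLS2 for FAS (Euclidean distances of 0.13 and 0.17 log2 units) and DNAJB9 and TMEM68 for TNFRSF10B (0.069 and 0.12). For TNFSF10 they were ARHGAP22 and FABP4 (0.14 and 0.15, on log2 CPM that a prior count draws together near 0 reads), and for CASP10 they were EBI3 and ADGRF5 (0.054 and 0.096). FABP4 had fitted log2 fold changes of 0.38 at 1.5 h, 3.95 at 7 days and -2.91 with the knockdown, against -0.03, 2.97 and -0.92 for TNFSF10, so its likeness is weaker on that scale. EBI3 had log2 fold changes of 0.09 at 1.5 h, 2.55 at 7 days and 0.50 with the knockdown. The likeness covers 4 group means that share their libraries and is a description.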

How the data were processed

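Stranded mRNA libraries from 20 U2-OS samples, 4 groups of 5, were sequenced as single reads. The authors deposited whole-number read counts per gene without normalization, with an exon width per gene. The submitters' processing notes name bcl2fastq, Trimmomatic, STAR 2.4.2a and build hg19. The counting tool, its annotation and its strand setting are not given in the sources used here.

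The fits used edgeR 4.0.16 under R 4.3.3. Genes were filtered by filterByExpr (minimum count 10), libraries were scaled by TMM, and 1 quasi-likelihood model with a term per group was fitted to all 20 libraries and 14992 genes. Standard errors were derived from the F statistic. Log2 CPM used a prior count of 2, and ratios used raw counts with a pseudocount of 0.5. RPKM used the deposited width. P values measure only the spread between these replicates. Within groups, no library was a copy of another. The test was tried on simulated data first.

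Alternatives were RLE and upper-quartile factors, library size alone, no filter, at least 10 counts in every library, lane or replicate number as a factor, Bonferroni adjustment, other fold thresholds (none, 1), DESeq2 1.42.0, fits of only the groups compared or within one lane, and leaving out each library. The fit without untreated replicates 4 and 5 and the TNFRSF10C to TNFRSF10B ratio were added after seeing the data. The 10 genes and the lists were chosen with earlier results of these data known. Named besides them were NFKBIA, markers, genes with overlapping annotation, at most 5 called pathway genes per direction and comparison, and the 2 nearest genes in pattern of each called gene. GENCODE 29 gave only gene order, overlaps and the exon lengths set beside the deposited widths. Figures were drawn with matplotlib 3.10.9. Some genes of the pathway list are counted in its totals but are not reported here by name.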

Additional observations from a re-analysis of the deposited data

Results flagged for a closer look

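Within groups, 32 sets of 5 libraries were searched for a library that lay far from the other 4, by the gap to its nearest neighbour over the range of the set on the log2 CPM scale. Chance passes this limit in about 1 of 20 sets, or 1.6 here, and 2 passed. CASP8 in untreated replicate 5 had a gap over range of 0.839, with 60.8 CPM against 41.7 to 44.4 CPM in the other untreated libraries. CFLAR in replicate 3 at 1.5 h had 0.796, with 74.8 CPM against 71.6 to 72.2 CPM.

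Levels differed between 7 days and 1.5 h post-IR for 5 genes in the direct contrast (edgeR, called as in the text), in which irradiation and time in culture cannot be told apart. TNFSF10, kept by the filter only through 7 days, is a description. The value at 7 days minus that at 1.5 h, on the log2 scale, was 3.01 for TNFSF10, 2.59 for CASP10, 0.78 for FAS, 0.53 for TNFRSF10B and 0.53 for CASP8. In all 5 genes each library at 7 days lay above each library at 1.5 h.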

How the results depend on the processing

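Calls of FAS at both times, and of TNFRSF10B and CASP10 at 7 days against untreated cells, held under every alternative with the 0.5 fold threshold. TNFSF10 gave no value with at least 10 counts in every library, and no fit within a lane was possible for 7 days or the knockdown against untreated cells. No scaling moved the median of all genes by over 0.1 on the log2 scale. Low counts limit TNFRSF10A and TNFRSF10D, which had too few reads to be tested, and TNFSF10 outside 7 days.

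Counts of the 8 tested genes called are given where they moved by over 1.5 times or with lane. At 1.5 h (2), there were 4 with no fold threshold, 1 with a threshold of 1, 1 without untreated replicates 4 and 5, and 3 with lane as a factor and 3 within one lane, where CASP8 was called lower. Both rest on untreated replicate 5, the only untreated library in that lane and the highest untreated one for CASP8. At 7 days (4), there were 7 with no threshold and 6 with lane as a factor. With the knockdown (1), there were 4 with lane as a factor (FAS, TNFRSF10B, TNFRSF10C and FADD, and not CASP10), 6 with no threshold, and 0 with Bonferroni adjustment, with a threshold of 1 and without untreated replicates 4 and 5. At 7 days against 1.5 h (5), there were 8 with no threshold, 2 with a threshold of 1, and 4 with lane as a factor and within one lane. Leaving out 1 library gave 2 at 1.5 h, 4 at 7 days, 0 to 1 with the knockdown, 3 to 5 at 7 days against 1.5 h and 4 at 7 days against the knockdown.

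By the same limit of 1.5 times, of the 33 pathway genes, 3 were called at 1.5 h, and 9 with lane as a factor, 9 within one lane, 1 with Bonferroni, 8 with no threshold and 1 with a threshold of 1. At 7 days (14), there were 9 with Bonferroni and 3 with a threshold of 1. With the knockdown (2), there were 7 with lane as a factor, 8 with no threshold, 1 with a threshold of 1 and 4 with DESeq2. At 7 days against 1.5 h (15, with 11 higher and 3 lower when TNF is left out), there were 8 with Bonferroni, 24 with no threshold and 3 with a threshold of 1, and against the knockdown (12), 21 with no threshold and 7 with a threshold of 1. Leaving out 1 library gave 3 to 4, 12 to 15, 2 to 4, 12 to 15 and 12 in this order.

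Signs turned only in genes not called. At 1.5 h, TNFRSF10C (0.01) was at -0.01 with upper-quartile factors and -0.04 to 0.04 leaving out 1 library, TNFSF10 (-0.03) at 0.17 without untreated replicates 4 and 5 and -0.25 to 0.15 leaving out 1 library, FADD (-0.35) at 0.39 with lane as a factor and 0.38 within one lane, and CASP10 (0.05) at -0.08 to 0.12 leaving out 1 library. At 7 days, FADD (0.01) was at -0.03 with no filter, -0.01 with only the groups compared, -0.07 without untreated replicates 4 and 5 and -0.14 to 0.08 leaving out 1 library, and CASP8 (0.29) was at -0.10 with lane as a factor. With the knockdown, FADD (0.13) was at -0.01 to 0.21 leaving out 1 library and CASP8 (0.24) at -0.22 with lane as a factor. The cause was not tested.

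With the replicate number as a block, the 8 genes had 2, 4, 1, 5 and 4 calls in the order 1.5 h, 7 days, knockdown, 7 days against 1.5 h and 7 days against the knockdown. The numbers did not pair the samples: over 30 pairs of same-numbered libraries the correlations of deviations ran from -0.254 to 0.123, 2 exceeded 0.1, and 4 libraries correlated best with their own number.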
